A study of Mus musculus with 4 samples.

Results

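The genes described here encode 5 ligands of the bone morphogenetic protein (BMP) pathway, Bmp2, Bmp4, Bmp5, Bmp6 and Bmp7, and 4 secreted antagonists, Nog, Chrd, Grem1 and Fst. Open chromatin around them was measured by ATAC-seq, in which a transposase cuts accessible DNA, in the surface ectoderm of mouse facial prominences at E11.5. Every peak whose centre lay within 100 kb of the start site of 1 of the 9 genes was taken, which gave 84 of 65467 peaks in control ectoderm and 3 of 3103 regions that were more accessible in control than in EDKO ectoderm. EDKO embryos carried Crect together with Tfap2a flox/flox and Tfap2b flox/flox and so lost the transcription factors AP-2α and AP-2β where Crect was active. Control embryos were littermates without Crect that carried 1 floxed copy of each gene (Tfap2a flox/+; Tfap2b flox/+), so floxed alleles were present in both groups. Crect expresses Cre from an intronic enhancer of Tfap2a that is active throughout the early surface ectoderm, and recombination outside this layer was not assessed here. Each group had 2 libraries, made from dissociated ectoderm that had been peeled from the mesenchyme. The first list (control peaks) was called on the control libraries together. Its name numbers the libraries differently from the sample labels, and it was taken, as the methods describe, as a call on both labelled controls. The second list was called on both control libraries with both EDKO libraries as background, and its entries are named AP-2-dependent regions here. Neither list has a value for a single library, so no peak has an error between replicates and no difference between genotypes was tested here. Regions more accessible in EDKO ectoderm and gene expression were not analysed here.

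BMP ligands are secreted dimers that bind type I and type II receptor kinases, which phosphorylate SMAD1, SMAD5 and SMAD9. These move with SMAD4 to the nucleus, where the Id and Msx genes are well-known targets. Noggin, chordin and gremlin bind BMP ligands outside the cell and keep them from the receptors, while follistatin binds activins and also some BMPs. In the face, BMP signalling passes between ectoderm and mesenchyme and takes part in the outgrowth and fusion of the prominences and in tooth initiation.

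Only Bmp7, Nog and Bmp5 had an AP-2-dependent region in this window, and each had 1. Their sequences are shown because they are the sites in these windows where the call found less accessibility in EDKO ectoderm. Each stretch is 300 bases of the plus strand of GRCm38 around the summit. Capitals mark GCCNNNGGC, a palindromic string that AP-2 proteins are known to bind, searched on both strands.

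Bmp7, chr2:172977359-172977658: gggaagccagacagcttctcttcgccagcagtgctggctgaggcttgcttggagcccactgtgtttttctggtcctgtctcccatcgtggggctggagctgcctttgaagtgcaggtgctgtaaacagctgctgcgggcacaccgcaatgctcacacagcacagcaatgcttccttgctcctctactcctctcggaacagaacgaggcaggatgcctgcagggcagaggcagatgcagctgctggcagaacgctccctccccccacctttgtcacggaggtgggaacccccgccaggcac

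Nog, chr11:89340210-89340509: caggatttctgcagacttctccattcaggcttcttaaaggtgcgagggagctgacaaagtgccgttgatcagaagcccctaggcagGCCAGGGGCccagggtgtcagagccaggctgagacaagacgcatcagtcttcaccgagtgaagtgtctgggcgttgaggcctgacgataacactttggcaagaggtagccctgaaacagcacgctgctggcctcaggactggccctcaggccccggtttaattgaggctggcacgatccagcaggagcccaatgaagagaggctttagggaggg

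Bmp5, chr9:75832580-75832879: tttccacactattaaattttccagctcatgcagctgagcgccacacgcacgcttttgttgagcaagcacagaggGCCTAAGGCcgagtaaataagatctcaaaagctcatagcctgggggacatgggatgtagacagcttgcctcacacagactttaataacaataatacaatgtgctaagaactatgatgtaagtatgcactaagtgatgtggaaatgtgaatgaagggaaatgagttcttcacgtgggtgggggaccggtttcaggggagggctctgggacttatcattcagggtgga

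The Bmp7 region (chr2:172977353-172977871, 519 bp) was the strongest of the 3 by area and by summit. It was centred 37.3 kb upstream of Bmp7 in intergenic sequence, with an area under the curve of 1420, larger than that of 91.3% of all regions, and a summit −log10 p of 9.39. The area is the caller's measure, which takes in both the significance and the width of a region. The summit value is the highest significance in the region, from the caller's test and not adjusted for multiple positions. The region lay inside a control peak of 1620 bp (chr2:172976941-172978560) with a summit at the same base, and it filled 32% of that peak. The control peak itself was high, with a summit −log10 p of 10.81, the third highest of the 22 at Bmp7. The region held no GCCNNNGGC and none of the other strings searched. The start site nearest to it was not that of Bmp7 but that of Spo11, a meiotic recombination gene, at 2.24 kb, so the list alone does not assign it to Bmp7.

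The Nog region (chr11:89339996-89340550, 555 bp) was centred 37.9 kb upstream of Nog in intergenic sequence, and Nog had the nearest start site. It was weak among the regions, with an area of 255, larger than that of 19.2% of all regions, and a summit −log10 p of 3.45. It filled 92% of a control peak (chr11:89339982-89340584) whose summit −log10 p of 5.25 was close to the median of all control peaks near genes. It held 1 GCCNNNGGC and 2 copies of the variant in which GCC and GGC are separated by 4 bases.

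The Bmp5 region (chr9:75832565-75832879, 315 bp) lay 57.4 kb downstream of the start site, in intron 2 of Bmp5, and had the smallest area of the 3. Its area was 213, larger than that of 5.09% of all regions, and its summit −log10 p was 3.53, close to that at Nog. It had the same first and last base as its control peak, which was itself weak (summit −log10 p 4.06, higher than 24.6% of control peaks). It held 1 GCCNNNGGC and none of the other strings. The caller kept only intervals with an area of at least 200 in either list, so the Nog and Bmp5 regions stood near that limit and the Bmp7 region did not.

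The share of control peaks near these genes that overlapped an AP-2-dependent region was close to that near any gene, but it rested on few peaks. Of the 84 control peaks, 3 overlapped an AP-2-dependent region by at least 1 bp, a share of 3.57% (95% Wilson interval 1.22 to 9.98%, counting error only). Among all 52461 control peaks within 100 kb of a protein-coding start site the share was 3.65%. The interval at the 9 genes includes this value but is wide, and it does not show that the shares were alike. Ligand genes had 2 of 53 peaks with a region (3.77%, 1.04 to 12.8%) and antagonist genes 1 of 31 (3.23%, 0.572 to 16.2%), so the interval of each group held the share of the other. Among peaks over 5 kb from any start site the share was 2 of 50 (4.0%, 1.1 to 13.5%), beside 4.93% of all such peaks.

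Counted by gene, 3 of 9 had a region, beside 20.2% of the 21938 protein-coding genes. Genes with more open chromatin around them had a region more often, so the count was also read among genes with a like number of control peaks. With 4 to 8 peaks, 2 of 6 BMP genes had a region (Bmp5 and Nog), beside 16.3% of all genes in that class. With 9 to 15 peaks, neither Bmp4 nor Chrd had a region, beside 27.3% of all genes. With 16 to 24 peaks, Bmp7 had a region, as did 35.3% of all genes. These numbers are too small to set the 9 genes apart from others with as many peaks.

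**Figure D1:**
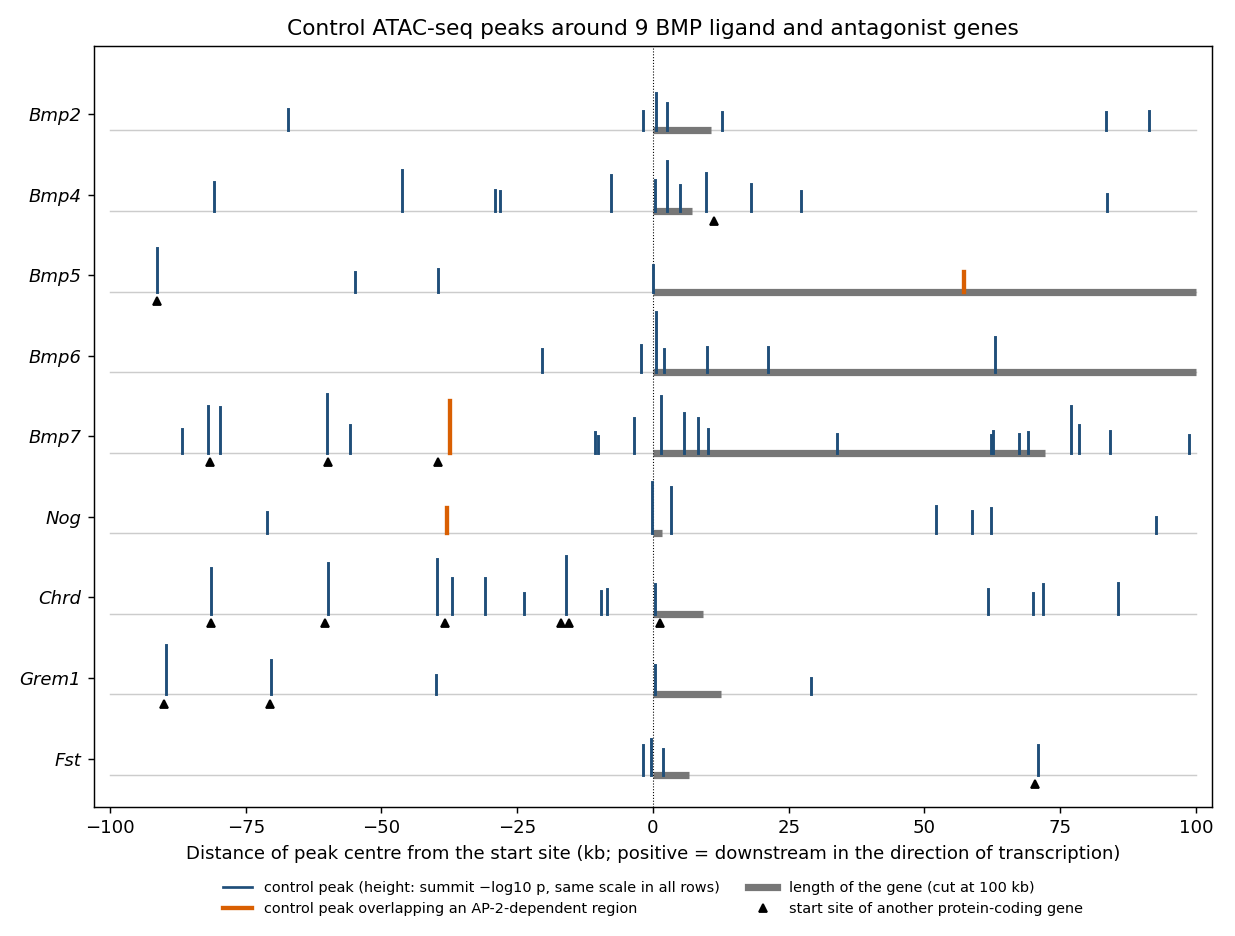
Control ATAC-seq peaks around the 9 genes. The x axis gives the distance of each peak's centre from the start site in kb, with upstream to the left. Each vertical line is a control peak with a height proportional to its summit −log10 p, orange lines overlap an AP-2-dependent region, grey bars show the length of the gene and triangles mark start sites of other protein-coding genes. The 22 peaks at Bmp7 are spread over the whole window, while 3 of the 4 at Fst lie within 2 kb of its start site.

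The genes differed widely in how much accessible chromatin surrounded them. The median protein-coding gene had 8 control peaks within 100 kb (quartiles 4 and 13). Bmp7 had 22, more than 93.5% of genes, Chrd had 14 and Bmp4 had 12. Nog had 8, Bmp2 and Bmp6 had 7 each, Bmp5 and Grem1 had 5 each, and Fst had 4, more than 24.8% of genes. Of the 84 peaks, 55 had a member of the list as the nearest protein-coding start site (65.5%, 54.8 to 74.8%), and the other peaks were closer to a neighbouring gene.

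**Figure D2:**
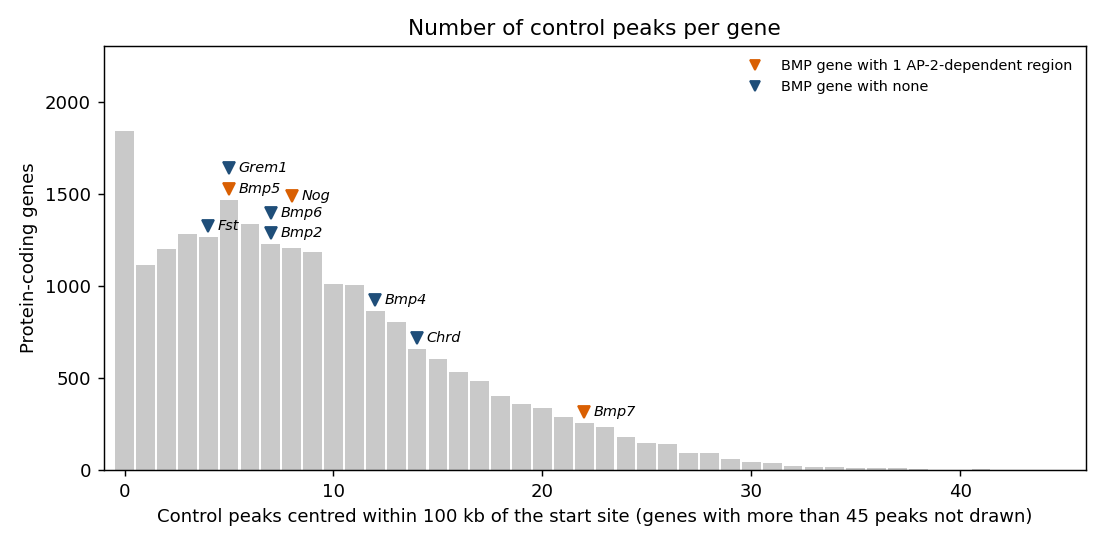
Number of protein-coding genes (y axis) by the number of control peaks centred within 100 kb of their start site (x axis). Triangles mark the 9 BMP genes, in orange where the gene has 1 AP-2-dependent region; Bmp7, with 22 peaks, is the only one of the 9 beyond 14.

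Among the ligands, Bmp7 had by far the most peaks. It encodes a ligand that can pair with BMP2 or BMP4 in heterodimers. A peak of 5466 bp (chr2:172936105-172941570) ran from its first intron across the start site, wider than 99.5% of the peaks that cover a start site, with a summit −log10 p of 11.76 placed 15 bp upstream of the start site. A further 8 peaks had their summits inside the gene, of which the widest (chr2:172933347-172935994, 2648 bp) reached 8.16. Beyond the 3′ end, a peak 77.1 kb downstream of the start site (chr2:172862421-172864085) reached 9.68 with no other coding start site closer to it than that of Bmp7. The highest peak in the window, at 12.19, lay over the start site of Rae1, a nuclear export factor gene whose start site is 59.8 kb upstream, and 2 further peaks, at 9.49 and 9.74, lay at Rbm38. In all, 16 of the 22 peaks had Bmp7 as the nearest gene and 6 lay nearer to Spo11, Rae1 or Rbm38.

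Bmp4, the ligand closest in sequence to BMP2 and one with known roles in lip and tooth development, had 12 control peaks and no region. Its highest peak was not at the start site but 2.65 kb downstream in an intron (chr14:46386840-46389201), with a summit −log10 p of 10.42, higher than 90.9% of control peaks. The peak over the start site (chr14:46389478-46390942) reached 6.43. Distal peaks were found on both sides, of which the highest were 46.2 kb upstream (chr14:46436288-46437397) at 8.63, 9.82 kb downstream at 7.83 and 7.74 kb upstream at 7.56. The peak 9.82 kb downstream lay nearer to the predicted gene Gm15217, at 1.38 kb, than to Bmp4. The nearest AP-2-dependent region was 1430 kb away.

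Bmp2 had 7 peaks, all with Bmp2 as the nearest gene and none with a region. The peak over the start site (chr2:133551963-133553541) was the highest, at 7.78. An adjacent intronic peak reached 5.65 and the other 5 lay between 3.88 and 4.42, higher than 18.7 to 35.3% of all control peaks. No other coding start site lay in this window, and the nearest AP-2-dependent region was 3366 kb away, the largest distance among the 9 genes.

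Bmp6 also had 7 peaks, all nearest to Bmp6. Its start-site peak (chr13:38344599-38346821, 2223 bp) was the highest of the 84, with a summit −log10 p of 12.56, higher than 97.1% of all control peaks. A second peak of 7.24 lay 63.0 kb downstream in an intron (chr13:38407783-38408500), and the other 5 lay between 4.78 and 5.54. No region lay within the window. The nearest (chr13:38594285-38594913) was 249 kb downstream, in an intron of Bloc1s5, with an area of 448.

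Bmp5, whose loss is known to give short-eared mice, had 5 peaks, and only 3 of them were nearest to it. Its start-site peak (chr9:75775049-75775662) was the weakest of the 9 at 5.53. The highest peak in the window, at 9.07, lay over the start site of the neuroendocrine gene Scg3, 91.4 kb upstream. A peak 39.6 kb upstream consisted of repeat-masked sequence over 97.8% of its length, where reads that align to several places can contribute.

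**Figure D3:**
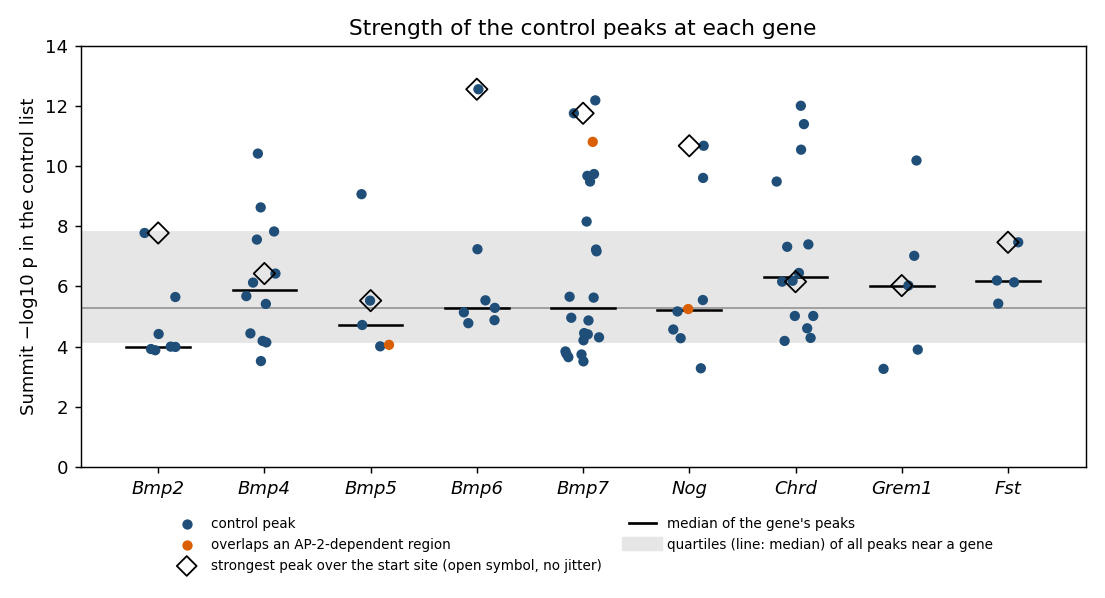
Summit −log10 p of each control peak (y axis) by gene (x axis), with points spread sideways for display. Orange points overlap an AP-2-dependent region, diamonds mark the highest peak over each start site, black lines the gene's median, and the grey band the quartiles of all control peaks near genes with their median as a line. The start-site peak is the highest peak at Bmp2, Bmp6, Nog and Fst and not at the other 5 genes.

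Among the antagonists, Nog had the strongest peaks of its own. Noggin is encoded by a single exon and no other coding start site lies within 100 kb. All 8 peaks had Nog as the nearest gene. A peak of 2831 bp over the start site (chr11:89301099-89303929) had its summit 1230 bp upstream of it, at 10.68, and a peak of 3194 bp just beyond the gene (chr11:89297480-89300673) reached 9.61. The other 6 peaks were distal and lower, from 3.28 to 5.55, the peak with the AP-2-dependent region among them.

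Chrd, which encodes the antagonist cleaved by tolloid proteases, lay in a gene-dense window with 6 other coding start sites. Of its 14 peaks, only that over its own start site (chr16:20732345-20734668) was nearest to Chrd, at 6.16. This peak also covered the start site of Thpo, 1.38 kb from that of Chrd, and its summit lay in an intron of Thpo. The highest peak, at 12.01, lay 16.1 kb upstream over the start sites of Clcn2 and Polr2h (chr16:20715466-20718606), and peaks at Fam131a, Eif4g1 and Psmd2 reached 11.40, 10.55 and 9.49. No AP-2-dependent region lay within 369 kb.

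Grem1 had 5 peaks, of which its start-site peak (chr2:113757333-113759315) reached 6.03. The highest, at 10.19, lay at the start site of Arhgap11a, 89.7 kb upstream, and another of 7.02 at that of Scg5. The remaining peak nearest to Grem1, 29.1 kb downstream, was repeat-masked over 100% of its length and reached only 3.26. A region just outside the window (chr2:113869530-113870227), 111 kb upstream, had an area of 1277 and 2 copies of GCCNNNGGC. It was nearest to Arhgap11a. The farthest control peak just inside the window was 98.8 kb from Bmp7.

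Fst had the fewest peaks, 4, and none was more than 5 kb from a start site. The peak over the start site (chr13:114458143-114459860) reached 7.47, those on either side reached 5.43 and 6.20, and the last, at 6.14, lay at Ndufs4. The nearest AP-2-dependent region was 292 kb away.

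All 9 start sites were covered by a control peak, as were 61.4% of all protein-coding start sites. None of these 9 peaks overlapped an AP-2-dependent region. Such overlaps were rare in general, at 1.0% of the 13192 control peaks centred within 1 kb of a start site. The absence at 9 peaks therefore does not set these genes apart. By centre, 8 of the 9 had a peak within 1 kb, and Bmp7 did not because the centre of its 5466-bp peak lay 1.48 kb into the gene. The median summit −log10 p over covered start sites was 9.72. Bmp6, Bmp7 and Nog were above it, at 12.56, 11.76 and 10.68, while Bmp2, Fst, Bmp4, Chrd, Grem1 and Bmp5 were below, from 7.78 down to 5.53. For the last 4, between 9.25 and 15.1% of covered start sites had a lower summit. Differences between genes in this value have no replicate error and are given as the combined call has them.

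RefSeq promoter windows, from 250 bases before to 50 after a start, were matched for 5 of the 9 genes. Those of Bmp4, Bmp5, Chrd and Grem1 started within 2 bp of the GENCODE site used here, and that of Bmp6 started 609 bp downstream of it. The GC content of these 4 ranged from 43.3% at Bmp5, higher than 17.3% of windows, to 78.3% at Chrd, higher than 98.2%, although both genes were in the lower part of the start-site peaks. Chrd held 2 copies of GCCNNNGGC and Bmp4, Bmp5 and Grem1 held none, beside 16.6% of 32851 windows with at least 1 copy. The 250 bases before the RefSeq start (GRCm38) of these genes at the ends of the range are shown on the strand of the gene, here the plus strand, with GCCNNNGGC in capitals.

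Bmp5, chr9:75775115-75775364: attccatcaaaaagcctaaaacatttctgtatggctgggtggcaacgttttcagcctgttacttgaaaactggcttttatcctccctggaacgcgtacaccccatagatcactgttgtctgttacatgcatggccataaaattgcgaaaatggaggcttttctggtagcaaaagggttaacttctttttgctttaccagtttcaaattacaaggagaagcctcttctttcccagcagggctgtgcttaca

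Chrd, chr16:20732877-20733126: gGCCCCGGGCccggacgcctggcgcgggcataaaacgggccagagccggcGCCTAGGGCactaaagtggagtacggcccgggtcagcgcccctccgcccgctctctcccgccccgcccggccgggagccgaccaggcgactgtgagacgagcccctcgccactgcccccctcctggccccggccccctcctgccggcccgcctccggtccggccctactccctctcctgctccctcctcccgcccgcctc

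The AP-2 string was found at the summits of a larger share of these peaks than of control peaks near genes in general, and Bmp7 carried much of the difference. GCCNNNGGC lay within 100 bp of the summit in 22 of 84 peaks (26.2%, 18 to 36.5%), beside 15.0% of all 52461. Bmp7 gave 9 of the 22. Without Bmp7, 13 of 62 peaks held it (21%, 12.7 to 32.6%), an interval that includes the general share. Among peaks over 5 kb from any start site, 14 of 50 peaks held it (28.0%, 17.5 to 41.7%), beside 12.5%, and 8 of the 14 were at Bmp7. Without Bmp7 the distal count was 6 of 35 (17.1%, 8.1 to 32.7%), again an interval that includes the general share. Within 5 kb of a start site, 8 of 34 peaks held it (23.5%, 12.4 to 40.0%), beside 19.3%. Bmp4, Chrd and Grem1 had 3 such peaks each, Nog 2, Bmp5 and Fst 1 each, and Bmp2 and Bmp6 none. Base composition moves with this string. The median GC content at the summit was 57.2% at the 9 genes and 54.2% at all peaks near genes. Below 50% GC, 2 of 18 peaks held the string (11.1%, 3.1 to 32.8%), beside 7.98% of all. Between 50 and 60% GC, 10 of 34 peaks held the string (29.4%, 16.8 to 46.2%), beside 12.3% of all, and 6 of the 10 were at Bmp7. Without Bmp7 this class had 4 of 20 (8.07 to 41.6%). At 60% GC or more, 10 of 32 did (31.2%, 18 to 48.6%), beside 25.7%.

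Most peaks with the string did not overlap an AP-2-dependent region. Of the 22, 2 overlapped a region (9.09%, 2.53 to 27.8%), those of Nog and Bmp5, beside 5.48% of all such peaks near genes. Of the 62 peaks without it, 1 overlapped a region (1.61%, 0.285 to 8.59%), that of Bmp7, beside 3.33%. The string therefore stood in 20 control peaks at these genes without a call of lower accessibility. A short stretch around the string is shown for the highest such peak at each gene that had no region, on the plus strand of GRCm38 with the string in capitals. At Bmp4 it lies in the intronic peak described above and at Fst in the start-site peak. At Chrd it lies in the peak over Clcn2 and Polr2h and at Grem1 in that of Arhgap11a, in untranslated exons of those neighbours, and only 30 bases are given.

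Bmp4, chr14:46387505-46387564: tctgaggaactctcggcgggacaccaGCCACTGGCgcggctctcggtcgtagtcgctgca

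Fst, chr13:114459547-114459606: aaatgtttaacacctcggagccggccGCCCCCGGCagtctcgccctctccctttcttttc

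Chrd, chr16:20717782-20717811: cgtgcgcacgcGCCCTCGGCctcgttgccg

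Grem1, chr2:113848592-113848621: ccatcagccttGCCTGTGGCcccggcccgc

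Strings of other factors are given beside their general share. They were searched on both strands within 100 bp of the summit, and a stretch of DNA can count for more than 1 of them. GGCGCC, a GC-rich string that BMP-activated SMADs bind, was found in 8.33% of the 84 peaks and in 9.37% of all peaks near genes. GGAATG, bound by TEAD factors, was found in 17.9%, beside 16.6%. TAATTA, bound by homeodomain proteins such as those of the Msx and Dlx genes, was found in 5 of 84 (5.95%, 2.57 to 13.2%), beside 3.47%. AACCNGTT, bound by the epithelial Grainyhead-like factors, was found in 3.57%, beside 2.91%. The CTCF string was found in 8.33%, beside 6.85%, and the p53 family string, which p63 also binds, in 7.14%, beside 8.05%. The BMP response element, a longer composite of SMAD strings, was found in 0 of 84, with an upper Wilson bound of 4.37%, beside 0.244%. Each interval at the 9 genes included the general share, but the intervals were wide and do not show that the shares were alike. By gene, TEAD strings were in 5 of 12 peaks at Bmp4, 3 of 7 at Bmp6 and 4 of 22 at Bmp7. Nog, Grem1 and Fst had 1 such peak each, and Bmp2, Bmp5 and Chrd had none. TAATTA was in 2 peaks at Bmp4 and in 1 each at Bmp2, Bmp7 and Fst.

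**Figure D4:**
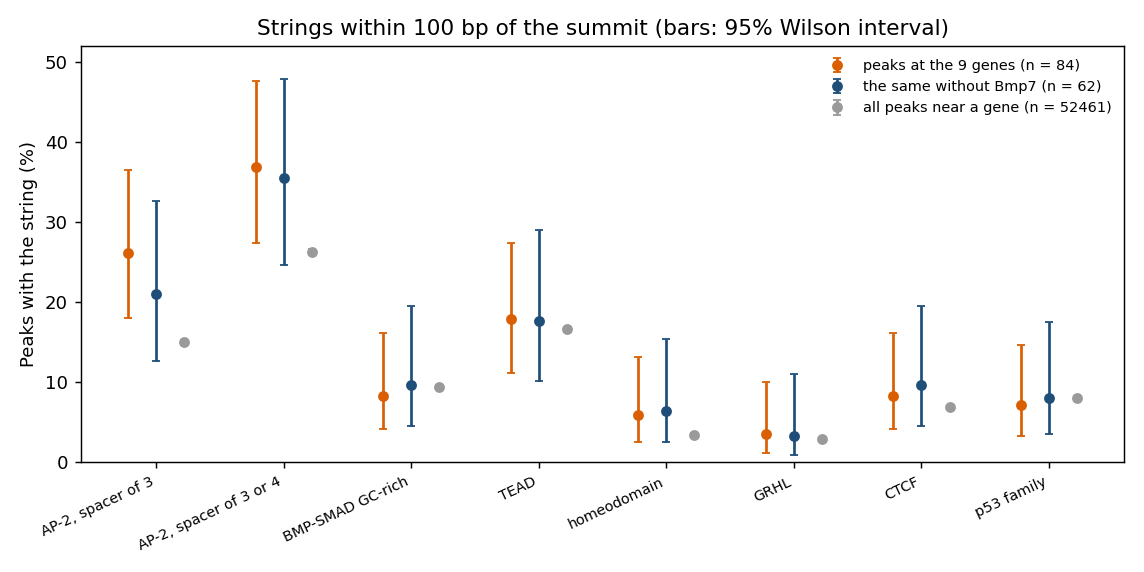
Share of control peaks with each string within 100 bp of the summit (y axis, percent) by string (x axis). Orange points are the 84 peaks at the 9 genes, blue points the same without Bmp7 and grey points all 52461 control peaks near genes, with 95% Wilson intervals. The AP-2 string with a spacer of 3 bases stands at 26.2% against 15.0%, and at 21% without Bmp7.

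The other genes of the pathway gave a like picture. Of 49 listed, 48 were matched, with 538 control peaks within 100 kb, and 19 of these overlapped an AP-2-dependent region (3.53%, 2.27 to 5.45%), beside 3.65% of all control peaks near genes. A region lay within 100 kb of 13 of the 48 genes, beside 20.2% of all protein-coding genes. The 48 were not split by number of peaks, and of all genes with 25 or more peaks 49.3% had a region. Regions were counted by distance only, and other genes may have start sites nearer to them. The antagonist gene Sostdc1, which encodes ectodin, an inhibitor known from tooth patterning, had 3 regions, centred 0.497, 42 and 71.4 kb from its start site, each over a control peak. Bmp10, a ligand known from the heart, had 2 regions about 50 kb away (50.0 and 50.7 kb, largest area 952) that met a single control peak. Fstl3, a follistatin relative, had 2 (3.37 and 84.1 kb, largest area 671), and Msx1, a BMP target and homeodomain gene, had 2 (7.26 and 78.4 kb, largest area 564). The inhibitory Smad7 had 2 at 28.9 and 30.7 kb, and the target Id3 had 2 at 3.43 and 61.7 kb. Among genes with 1 region were the chordin-cleaving protease gene Bmp1 (65.6 kb, area 1076), the receptor genes Bmpr1b (83.8 kb, area 397) and Acvrl1 (58.6 kb, area 352), and the signal transducer gene Smad5 (50.5 kb, area 392). Smad7 and Acvrl1, with 30 control peaks each, and the antagonist gene Dand5, with 28, had the most peaks.

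By role, 2 of 74 peaks at other ligand genes (2.70%), 6 of 145 at other antagonist genes (4.14%), 2 of 70 at receptor genes (2.86%) and 5 of 101 at target genes (4.95%, 2.13 to 11.1%) overlapped a region. The intervals overlapped widely. No control peak was shared between these genes and the 9 described above.

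**Figure D5:**
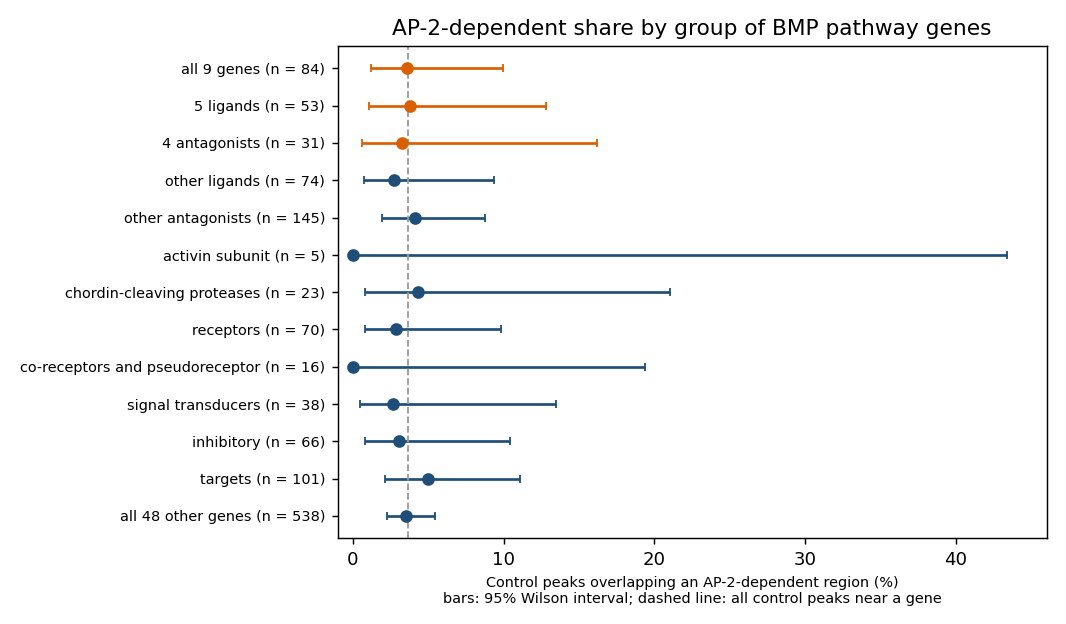
Share of control peaks that overlap an AP-2-dependent region (x axis, percent, with 95% Wilson intervals) for the 9 BMP genes and their ligands and antagonists (orange) and for other pathway genes by role (blue). The dashed line is the share of all control peaks near genes, 3.65%, which lies inside every interval.

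The tissue label was checked at marker genes. Control peaks lay within 1 kb of the start site of 9 of 9 surface ectoderm genes (summit −log10 p 6.77 to 12.42), 6 of 8 mesenchyme genes (3.78 to 7.96), 1 of 4 endothelial genes, 0 of 5 blood genes, 3 of 4 neuronal genes and 1 of 2 muscle genes. Of all protein-coding genes, 63.2% had such a peak, so the mesenchyme and neuronal counts were near the general share and tell little about the cells present. Several BMP genes are known to be active in mesenchyme as well, and which cells gave each of the 84 peaks was not tested.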

How the data were processed

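Surface ectoderm of E11.5 mouse facial prominences was profiled by ATAC-seq in 2 control and 2 EDKO libraries. The authors trimmed adapters with NGmerge, aligned reads to mm10 with Bowtie2 (up to 10 alignments per read kept), sorted them with SAMtools and called peaks with Genrich in ATAC mode, without PCR duplicates and the mitochondrial chromosome. The deposited values of a peak are a score (the area under the curve per base of width, times 1000 and capped at 1000), the area itself, also deposited as a score, the −log10 p at the summit, unadjusted, and the offset of the summit. They were used within their own list, and the replicates were combined before deposit. The methods give a sequencing depth per library, but neither list holds read counts, so the reads behind a single peak are not known.

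Coordinates are 1-based on GRCm38. Each of 21938 protein-coding genes was given the start site of its principal transcript in GENCODE (mouse release 21), and peaks were taken by their centre within 100 kb. Overlaps were counted from 1 bp, and strings were matched on both strands within 100 bp of the summit. Python 3.11.15, pandas 2.3.3, pysam 0.24.0 and samtools 1.23.1 were used, and overlaps were tested on simulated intervals against bedtools 2.31.1 with 0 differences. Shares carry 95% Wilson intervals, which cover counting error only. No test between genotypes was made, since no value per library was used. Promoter sequences are from RefSeq (GRCm38).

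All 9 genes were named, with every region in the windows, the peak nearest to each start site and the highest peak. Of the pathway genes, up to 10 with regions, by number and then area, and the 3 with most peaks were named. Sequences were those of the regions and of the highest peak with the AP-2 string at genes without a region. Other named peaks, the promoter sequences shown and the region outside the Grem1 window were chosen after their values were seen. The genes, lists and strings were chosen with earlier results of these data known. Inhba, listed with the antagonists, was counted in a role of its own, and Hjv was not matched.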

Additional observations from a re-analysis of the deposited data

How the results depend on the processing

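No paired analysis was possible because both lists were called on pooled libraries, and leaving out a library was not possible for the same reason. Of 50 values recomputed for 6 results, 43 under alternatives fixed at the start and 7 with Bmp7 left out, a choice made after seeing the data, 37 stayed within the interval of the reported value or within 1.5 times the reported count. The alternatives with the most upstream start site and with any base of the peak in the window returned every reported value unchanged. They therefore add nothing to this count. The share of control peaks with an AP-2-dependent region moved between 1.72% and 4.17% and stayed within its interval under every alternative run for it. That interval, 1.22 to 9.98%, is wide because it rests on 3 peaks, so staying within it is a weak criterion.

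The counts followed the window. There were 48 control peaks within 50 kb and 191 within 250 kb, 55 when only peaks nearest to the gene were kept and 50 when only peaks over 5 kb from any start site were kept. With an area of at least 500 in both lists, 1 AP-2-dependent region remained, that of Bmp7. The share of peaks with a region was then 1.72%, beside 1.93% of all control peaks near genes. Within 250 kb there were 5 regions, a share of 2.62%, beside 4.11%. Within 50 kb there were 2 regions, a share of 4.17%, beside 3.2%. With an overlap of at least 50% of both intervals the share was 2.38%, beside 2.05%. The share at the 9 genes thus lay below the general share in some settings and above it in others. The share of peaks nearest to a member was 75% within 50 kb and 39.8% within 250 kb. The median summit −log10 p was 6.44 with an area of at least 500 and 4.51 over 5 kb from any start site. The share with the AP-2 string was 36.9% with a spacer of 3 or 4 bases, beside 26.3% of all peaks near genes, and 45.2% when the whole peak was searched, beside 35.4%. It was 17.1% with Bmp7 left out and only peaks over 5 kb from any start site kept, beside 12.5%. Without reads per peak or a value per library, the precision of a single peak cannot be given.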
